A study of Mus musculus with 16 samples.

Results

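Immunoglobulin variable (V) genes were followed in EpCAM+ cells sorted from mouse distal colon. They were selected on their level: gene symbols beginning with Ighv, Igkv or Iglv and a number were kept if their mean over the 9 water-treated mice reached 1 TPM (kallisto's relative measure of transcript abundance, corrected for transcript length). Of 22396 gene symbols listed, 218 were V genes, and 182 of these passed: 95 of 115 heavy chain V genes, 84 of 100 kappa V genes and 3 of 3 lambda V genes. The remaining 36 lay under the threshold. Just inside were Igkv4-62 with a mean of 1.00 TPM, Igkv4-51 with 1.07 and Ighv12-3 with 1.12, and just outside were Ighv8-11 with 0.944, Ighv1-23 with 0.921 and Ighv6-4 with 0.808. The mean water level alone chose the members, so that level is given as a description and was not tested.

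The RNA of each of 16 mice was sequenced as its own library. Water was given to 4 control mice (Tnfr2-f/f) and 5 mice labelled knockout (Vil1::Cre;Tnfr2-f/f), and dextran sulfate sodium (DSS, an agent that injures the colonic epithelium) to 3 controls and 4 mice labelled knockout. All 16 carried the floxed alleles of Tnfr2 (Tnfrsf1b), and in the labelled knockouts Cre recombinase was driven by the villin promoter, which acts in intestinal epithelium and not in lymphocytes. The labels give a 3% solution over 6 days and a dissection at day 12, whereas the study's text gives a somewhat higher concentration and day 0 for the uninjured mice, which were adult. By the study's methods the injured regions were dissected out after DSS. In water, the 4 males shared cage a and the 5 females cage b, so cage and sex cannot be told apart. The 7 DSS mice were females of cages c and d, and so treatment and cage cannot be told apart either.

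A V gene is not expressed as it stands in the germline. In a developing B cell, recombination joins 1 heavy V gene to a D and a J segment, and 1 light chain V gene, kappa or lambda, to a J segment, so that each B cell clone and the plasma cells made from it transcribe mainly a single heavy and a single light V gene. Plasma cells of the intestinal lamina propria secrete antibody, largely IgA, at very high transcript levels, and are not epithelial. Where plasma cells make most antibody transcripts, the share of a V gene reflects which V genes those cells carry, weighted by the RNA of each cell. In such bulk RNA, fewer cells of a type and less RNA per cell cannot be told apart.

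All 182 V genes were found in GENCODE M21 on GRCm38. The heavy chain V genes lay on the minus strand of chr12:113588267-116000461. The kappa V genes lay at chr6:67555497-70704177, 29 on the plus and 55 on the minus strand, and the lambda V genes on the minus strand of chr16:19085017-19260859. Of the 182, all but 1 were annotated as functional V genes. The exception was Ighv1-13, annotated as a V pseudogene, with 0 to 169 TPM in water. The listed transcripts were short, 284 to 501 bases, and usually of 2 exons, a leader and the V exon.

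Many V genes resemble each other, which bears on every level given here. Among the 31-base stretches of a transcript, the median share found in no other gene was 55.3% for heavy, 46.8% for kappa and 63.2% for lambda V genes. Stretches of 90 bases of the V exon are shown for 3 sets, read from GRCm38 in the direction of the gene, because they hold several of the genes that led their locus in a mouse, beside close and distant relatives. Capitals mark bases that differ from the first sequence of the set.

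The lambda set is shown because 1 gene held nearly all lambda transcripts. Iglv1 (chr16:19085232-19085321) and Iglv2 (chr16:19260616-19260705) differed at 4 of the 90 bases and were 96.9% identical over their coding sequence, whereas Iglv3 (chr16:19241441-19241530) differed from Iglv1 at 39.
Iglv1: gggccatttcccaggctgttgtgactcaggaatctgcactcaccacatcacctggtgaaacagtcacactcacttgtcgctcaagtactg
Iglv2: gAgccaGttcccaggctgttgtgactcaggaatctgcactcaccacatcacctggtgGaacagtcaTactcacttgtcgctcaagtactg
Iglv3: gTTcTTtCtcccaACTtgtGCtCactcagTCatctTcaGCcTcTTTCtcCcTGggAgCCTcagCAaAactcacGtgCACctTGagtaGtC

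The kappa set holds the leading genes of 5 mice and a relative of theirs. Igkv1-110 (chr6:68270955-68271044) and Igkv1-117 (chr6:68121515-68121604) differed at 1 of the 90 bases and were 97.2% identical over the coding sequence. Igkv1-135 (chr6:67610196-67610285), the second kappa gene of 1 control, differed from Igkv1-110 at 21.
Igkv1-110: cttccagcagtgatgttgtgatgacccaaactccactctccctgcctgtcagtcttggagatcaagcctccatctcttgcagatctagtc
Igkv1-117: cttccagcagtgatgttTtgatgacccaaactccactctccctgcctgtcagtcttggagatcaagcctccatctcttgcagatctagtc
Igkv1-135: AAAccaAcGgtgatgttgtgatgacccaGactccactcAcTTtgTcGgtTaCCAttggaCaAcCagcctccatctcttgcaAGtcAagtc

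The heavy chain set compares 6 genes that each led in at least 1 mouse. Ighv1-72 (chr12:115758199-115758288) differed from Ighv1-53 (chr12:115158618-115158707) at 3 of the 90 bases and Ighv1-22 (chr12:114746488-114746577) at 11. Ighv6-3 (chr12:114391932-114392021), Ighv7-3 (chr12:114153405-114153494) and Ighv2-2 (chr12:113588481-113588570), each of another V family, differed at 36, 32 and 35.
Ighv1-53: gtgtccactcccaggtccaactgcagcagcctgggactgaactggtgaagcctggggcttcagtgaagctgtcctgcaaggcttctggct
Ighv1-72: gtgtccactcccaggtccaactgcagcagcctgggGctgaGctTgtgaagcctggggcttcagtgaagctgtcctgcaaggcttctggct
Ighv1-22: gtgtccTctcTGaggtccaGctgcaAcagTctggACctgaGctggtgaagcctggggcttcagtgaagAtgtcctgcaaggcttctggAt
Ighv6-3: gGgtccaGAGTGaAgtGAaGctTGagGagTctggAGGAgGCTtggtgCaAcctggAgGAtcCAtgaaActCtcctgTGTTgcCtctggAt
Ighv7-3: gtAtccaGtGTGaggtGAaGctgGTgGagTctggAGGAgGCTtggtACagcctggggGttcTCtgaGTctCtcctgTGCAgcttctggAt
Ighv2-2: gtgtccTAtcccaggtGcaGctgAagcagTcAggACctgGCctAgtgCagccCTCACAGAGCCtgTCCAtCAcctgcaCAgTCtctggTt

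V genes made up a large part of the water libraries, and their level varied widely between mice. Summed over the 182 genes, the 4 controls had 103479, 23860, 5442 and 128903 TPM, and the 5 labelled knockouts 70230, 266213, 81725, 165347 and 78750 TPM. Control 3 stood apart as the lowest, with 97 of the 182 V genes under 1 TPM, and labelled knockout 2 was the highest. These sums were 1.01% to 30.9% of all listed TPM of a mouse, with a median of 13.5%. TPM divides by length, so that for these short transcripts this is not the share of reads.

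Heavy and light chain totals followed each other from mouse to mouse. Heavy V TPM was 43794, 8870, 2231 and 58819 in controls 1 to 4 and 31756, 101221, 35937, 72602 and 33609 in labelled knockouts 1 to 5. Kappa V TPM was 48886, 13546, 1645 and 66238, against 35398, 153288, 30071, 70608 and 40152. Lambda V genes were the smallest class, at 10799, 1444, 1567 and 3846, against 3075, 11704, 15717, 22138 and 4989. The ratio of light to heavy V TPM lay in a narrow range, 1.19 to 1.69 with a median of 1.34 (n = 9). Lambda took 5.49% to 48.8% of light chain V TPM, highest in control 3 and next in labelled knockout 3 with 34.3%.

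**Figure D1:**
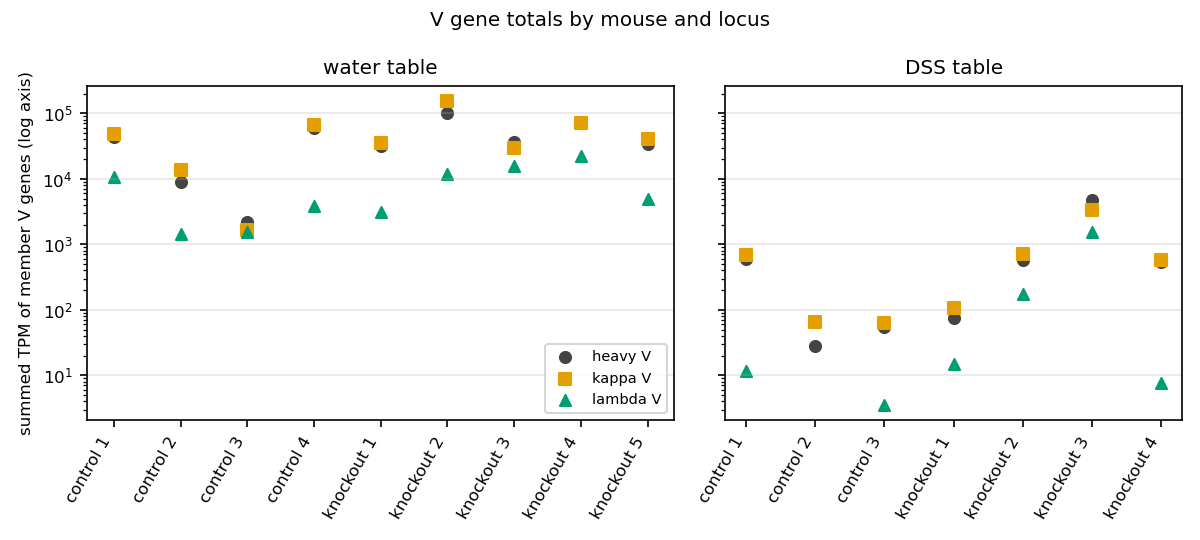
Summed TPM of heavy, kappa and lambda V genes (y axis, log scale) in each mouse (x axis) of the water and the DSS table, which were normalized apart. In water, control 3 lies lowest for heavy and kappa, and the other mice have at least 8870 heavy TPM; after DSS, labelled knockout 3 lies highest for all 3 loci, and DSS control 2, with lambda listed at 0, has no lambda point.

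Within the heavy chain locus, a few genes held much of the usage, and they were different genes in different mice. In the controls the leading heavy V gene held 26.4% of heavy V TPM (Ighv7-3), 8.62% (Ighv5-16), 31.8% (Ighv1-22) and 33.5% (Ighv6-3). In the labelled knockouts it held 10.8% (Ighv1-4), 17.5% (Ighv1-72), 29.1% (Ighv2-2), 16.7% (Ighv1-53) and 21.1% (Ighv6-3). Thus 8 different genes led in 9 mice, and Ighv6-3 alone led in more than 1. In the mice they did not lead, these 8 genes held a median of 1.83% (range 0% to 11.2%).

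The contrast between mice was wide for several of these leaders. Ighv2-2 held 29.1% in labelled knockout 3 and between 0.222% and 2.85% in the other 8 mice. Ighv1-22 held 31.8% in control 3, where all heavy V genes together were low, and at most 4.57% elsewhere. Ighv7-3 held 26.4% in control 1 and 1.51% to 6.08% elsewhere. Ighv1-4 reached 10.8% in labelled knockout 1 and at most 1.82% elsewhere, and Ighv5-16 reached 8.62% in control 2 and at most 1.27% elsewhere. Among heavy V genes, Ighv6-3 alone held more than 20% in mice of both genotypes, in control 4 and labelled knockout 5, both of cage b.

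Other heavy V genes were spread more evenly. Ighv1-53 held 2.04%, 8.60%, 11.0% and 0.744% in the controls and 1.92%, 8.67%, 11.2%, 16.7% and 5.14% in the labelled knockouts, with a mean of 7.32% ± 5.29 (SD, n = 9). Ighv1-26 held 2.02% to 13.4% (mean 5.33% ± 3.82) and Ighv3-6 1.48% to 8.39% (3.96% ± 2.34). Of Ighv1-72, which held 0.978% to 17.5%, only 1.91% of the 31-base stretches are found in no other gene, and 80.3% are shared with Ighv1-62-3, a V gene under the threshold with at most 2.97 TPM in a water mouse. How kallisto divided reads between them was not tested.

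By family, the Ighv1 genes, 46 of the 95 heavy members, held a mean of 49.6% ± 17.7 of heavy V TPM (SD, n = 9, range 27.6% to 82.5%), close to their 48.4% of the members. The 4 Ighv6 genes held 11.3% ± 13.1 and the 9 Ighv2 genes 9.32% ± 13.3, with highest values in a mouse of 42.0% and 43.7%. The 6 Ighv8 genes held 0.845% ± 1.56. Divided into 3 equal stretches of the locus by distance from the constant region, the nearest stretch held 40% of the members and a median of 46.7% of usage, and the farthest 26.3% and 22.3%. Between mice the share of the nearest stretch ranged from 14.4% to 68.0%.

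The kappa locus showed dominance of similar size, with fewer genes in the leading place. The leading kappa gene held 29.7% (Igkv1-117), 10.9% (Igkv10-96), 12.4% (Igkv1-110) and 29.0% (Igkv1-110) of kappa V TPM in the controls. It held 18.5% (Igkv16-104), 35.1% (Igkv5-43), 19.8% (Igkv1-110), 28.8% (Igkv5-43) and 20.1% (Igkv1-117) in the labelled knockouts. Thus 5 genes led in 9 mice, and Igkv1-110 led in 3 of them. Unlike most heavy leaders, Igkv1-110 was high throughout, with 4.38% to 29.0% (mean 13.8% ± 7.06, SD, n = 9).

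Igkv1-117 and Igkv5-43 each had mice far above the others. Igkv1-117 held 29.7%, 23.2% and 20.1% in control 1, control 4 and labelled knockout 5, and 2.99% to 11.6% in the other 6 mice. Igkv5-43 held 35.1% and 28.8% in labelled knockouts 2 and 4 and 1.01% to 11.3% elsewhere. Igkv16-104 held 18.5% in labelled knockout 1 and at most 6.51% elsewhere. Igkv1-135 held 16.8% in control 1 and 0.299% to 7.92% elsewhere.

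Because Igkv1-110 and Igkv1-117 share about 63.1% of their 31-base stretches, and Igkv5-43 shares 64.2% of its own with Igkv5-45, V genes sharing at least 50% were also added together. This joined 24 of the 182 genes into 12 pairs and left 170 entries. Igkv1-110 with Igkv1-117 then led in 6 mice, Igkv5-43 with Igkv5-45 in 2 and Igkv16-104 in 1, with leading shares of 15.6% to 52.2%. Heavy chain leaders stayed 8 in number, with leading shares of 8.62% to 33.5%. The merging was chosen after the data were seen.

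By family, the 8 Igkv1 genes were 9.52% of the kappa members and held 30.5% ± 18.1 of kappa V TPM (SD, n = 9, range 8.77% to 60.4%). The 24 Igkv4 genes, 28.6% of the members, held 11.7% ± 5.44. The 5 Igkv5 genes held 12.7% ± 12.4. The stretch of the locus farthest from Igkc held 22.6% of the members and a median of 42.4% of usage (range 25.5% to 69.5%). The middle stretch, with 34.5% of the members, held a median of 19.4% (range 7.17% to 32.7%).

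**Figure D2:**
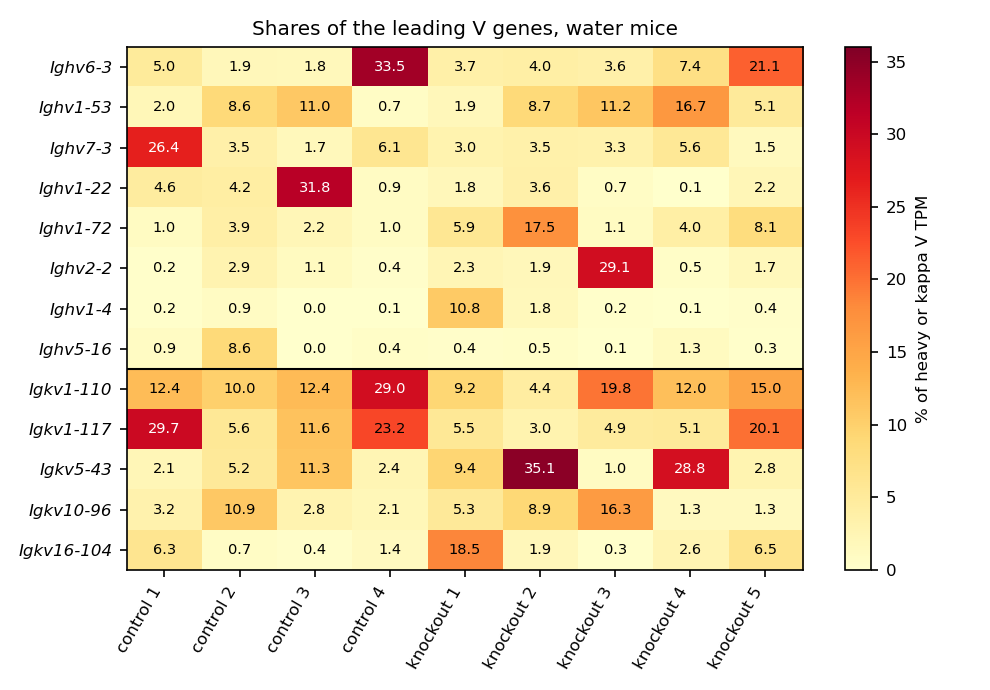
Share of heavy or kappa V TPM (%, color and printed value) held by each V gene (rows) that led its locus in at least 1 water mouse (columns), heavy above the line and kappa under it. Of the heavy leaders, Ighv6-3 exceeds 20% in 2 mice, and Ighv1-53 is the most evenly spread, with at least 8.60% in 5, while Igkv1-110 holds at least 4.38% in all 9.

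Lambda usage was nearly that of a single gene. Iglv1 held 99.3%, 99.2%, 99.7% and 77.2% of lambda V TPM in the controls and 99.4%, 99.0%, 99.4%, 99.3% and 96.6% in the labelled knockouts. In control 4 the close relative Iglv2 held 21.8%, against 0% to 0.462% in the other controls and 0% to 2.56% in the labelled knockouts. The lambda constant gene Iglc2 was highest in the same mouse, with 381 TPM or 12.7% of lambda constant TPM, and had 0 to 110 TPM in the other 8. Among the water mice, control 4 also had the highest share of Iglc3, 55.3%, and the lowest of Iglc1, 32.0%. Iglv3 held 0.197% to 1.03%.

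Dominance was summarised by the effective number of V genes, the inverse of the summed squared shares, which equals the number of genes if all are used alike. For heavy V genes it was 8.77, 25.8, 7.75 and 7.34 in the controls and 23.3, 15.7, 8.21, 12.9 and 13.7 in the labelled knockouts. For kappa it was 7.05, 22.1, 15.8 and 6.36 in the controls and 13.7, 6.33, 10.8, 8.60 and 11.3 in the labelled knockouts. Control 2 had the most even usage in both loci, although its V total was the second lowest. Depending on the mouse, 3 to 10 heavy genes (median 5) and 2 to 8 kappa genes (median 4) made up 50% of the locus. It took 18 to 35 heavy and 14 to 34 kappa genes to reach 90%.

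**Figure D3:**
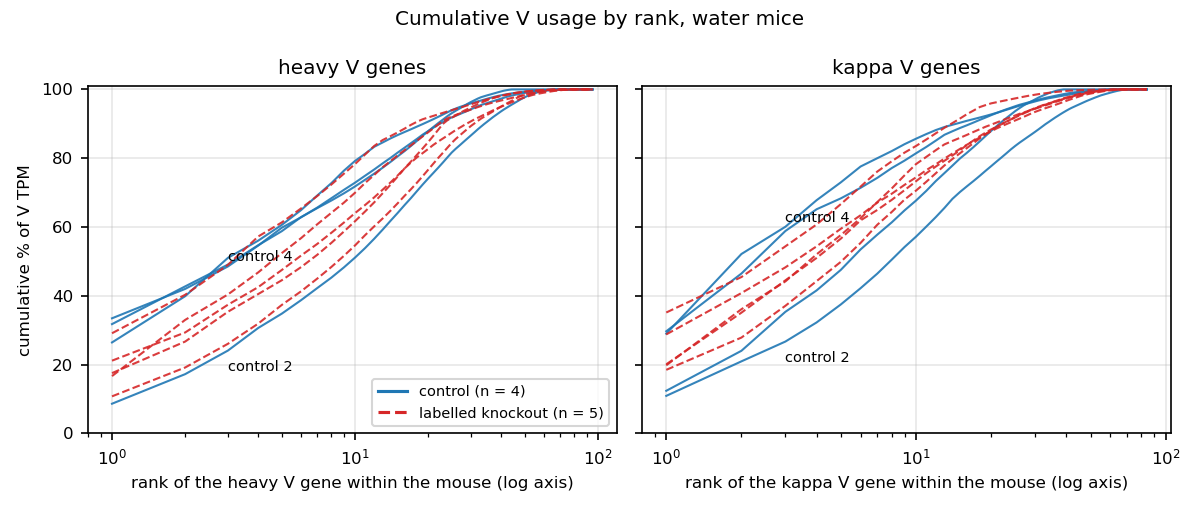
Cumulative percent of heavy (left) or kappa (right) V TPM (y axis) against the rank of the V gene within the mouse (x axis, log scale), 1 line for each of 4 control and 5 labelled knockout mice. Control 2 rises slowest in both loci, its first 3 genes holding 24.1% and 26.7%, and the lines of both genotypes overlap.

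Most V genes were present in most mice at low shares. Of the 182, 59 reached 1 TPM in all 9 water mice (27 heavy, 30 kappa and 2 lambda), and these 59 held 67.5% to 90.1% of V TPM. Another 36 reached 1 TPM in 4 or fewer mice and held at most 2.52%. In a single mouse, 85 to 160 V genes reached 1 TPM, lowest in control 3 and highest in labelled knockout 4. In all, 19 V genes (10 heavy, 7 kappa, 2 lambda) reached 10% of their locus in at least 1 mouse.

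Usage was compared between mice by the shared share, the sum over genes of the smaller of 2 mice's shares. Over the 36 pairs of water mice, heavy V usage was shared at 26.7% to 54.3% (median 38.1%) and kappa at 23.8% to 62.0% (median 45.6%). The heavy chain median was 40.9% for the 16 pairs within a cage and 37.4% for the 20 pairs between cages, and the kappa medians were 45.6% and 45.0%. The ranges of within-cage and between-cage pairs overlapped in both loci. The pair with the most similar kappa usage, controls 1 and 4, came from different cages.

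**Figure D4:**
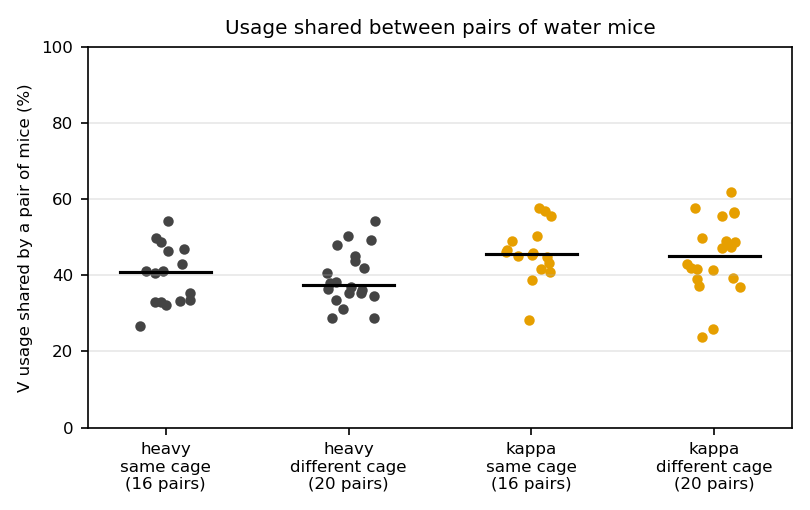
V usage shared by each pair of water mice (y axis, %), for heavy and kappa V genes and for pairs within or between cages. Each point is a pair, points share mice and are not independent, and the bar is the median. Medians were 40.9% within and 37.4% between cages for heavy and 45.6% and 45.0% for kappa.

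Whether mice of a cage, or of a genotype, shared V usage was tested by a pseudo-F of squared Hellinger distances between their shares, with exact permutation over all splits into 4 and 5 mice. Cage, and with it sex, took up 13.4% of the heavy chain variation (pseudo-F 1.08, exact permutation p = 0.325) and 13.6% of the kappa variation (pseudo-F 1.10, exact permutation p = 0.333). For genotype the values were 14.4% (pseudo-F 1.18, exact permutation p = 0.183) and 15.5% (pseudo-F 1.28, exact permutation p = 0.183). None passed 0.05. The smallest p this design allows is 0.00794. The heavy chain call for genotype turned on single mice: p was 0.0179 without control 4 and 0.0286 without labelled knockout 5, the mice led by Ighv6-3.

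Dominance did not differ between genotypes beyond the spread between mice. The leading heavy V gene held 25.1% ± 11.4 (SD, n = 4 controls) and 19.0% ± 6.75 (n = 5 labelled knockouts; exact two-sided permutation p = 0.325, adjusted p = 0.611 over 4 measures). The effective number of heavy V genes was 12.4 ± 8.95 and 14.8 ± 5.50 (exact permutation p = 0.611). The leading kappa gene held 20.5% ± 10.2 and 24.5% ± 7.24 (exact permutation p = 0.532), and the effective number of kappa V genes was 12.8 ± 7.54 and 10.2 ± 2.82 (exact permutation p = 0.484). With near-identical genes merged, the difference in the kappa leading share changed sign, from 3.97 to -4.99 percentage points (labelled knockout minus control). Between cages the same 4 measures gave an adjusted p of 0.984 each by exact permutation. Lambda's part of light chain V TPM was 20.5% ± 19.6 in the controls and 16.9% ± 11.9 in the labelled knockouts (exact permutation p = 0.738). Without control 3 its sign turned, from -3.63 to 5.80 percentage points.

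The V total was higher in the labelled knockouts on average, but not beyond the spread between mice. On the log2 scale the mean difference was 1.66 for all V genes (exact two-sided permutation p = 0.159), 1.70 for heavy (p = 0.151), 1.72 for kappa (p = 0.198) and 1.55 for lambda (p = 0.127), each with an adjusted p of 0.198. Without control 3 the difference for all V genes was 0.75. Within cage a, which holds control 3, the difference was 2.53 (2 against 2 mice), and within cage b it was 0.88 (2 against 3).

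Single V genes were compared between genotypes by limma on log2(TPM + 1), fitted to the 11046 genes whose mean reached 1 TPM and adjusted after Benjamini and Hochberg. Of the 182 V genes 0 were called at an adjusted p under 0.05 (lowest 0.865), against 0.00905% of all genes (1 of 11046). At an unadjusted p under 0.05 there were 29 V genes, against 5.28% of all genes, and 28 of them were higher and 1 lower in the labelled knockouts, against 2.70% and 2.58% of all genes. The median log2 difference was 1.26 over the V genes and 0.00 over all genes tested. Without control 3 the median over the V genes was 0.50, and 22 of the 182 were under 0.05, against 3.71% of all genes. V genes of a mouse share its V total, so these counts are not independent of the total given before. Without control 1, limma called 0.0182% of all genes (2 of 11009) and 1 of the 182 V genes, Ighv1-9 (adjusted p = 0.0395). It was then listed at or near 0 in the 3 remaining controls and had 119 to 1229 TPM in the labelled knockouts. In that fit Ighv1-9 passed the filter only through the labelled knockouts.

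The ranges of the genotypes did not overlap for 4 of the 182 V genes, all higher in the labelled knockouts, against 1.55% of all genes. The count is near that share and is not read as a result about V genes. The 4 were Ighv2-6-8, Igkv4-71, Igkv4-80 and Ighv2-2, named here after their values were seen. Ighv2-6-8 was listed at 0 in the 4 controls and at 29.8, 46.8, 125, 11.6 and 2.59 TPM in the labelled knockouts. It passed the filter on mean TPM only through the labelled knockouts, so its higher level there is not evidence of a difference. Ighv2-2 lay at 97.3, 253, 25.5 and 242 TPM in control mice and at 715, 1873, 10463, 348 and 581 TPM in labelled knockouts (log2 difference 3.45, standard error 1.04, adjusted p = 0.865 from limma). Cages were compared by limma with genotype as a covariate. Between cages 0 of 182 V genes were called (lowest adjusted p 0.540), against 0.0362% of all genes, with 19 at an unadjusted p under 0.05, against 6.83%. Of these, 16 were higher and 3 lower in cage b, against 3.54% and 3.29%. Of the 182, 3 did not overlap between cages (Igkv3-1, Igkv4-50 and Ighv1-54, all higher in cage b), against 1.79%. In the fit with genotype, the median log2 difference of cage b from cage a was 0.77 and, without control 3, -0.01. With all mice and no genotype covariate it was 0.91.

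The constant regions, the part of the antibody chain that follows the V segment, moved with the V totals over the 9 water mice. V segment and constant region are parts of the same chain. A relation within a locus was therefore given in advance, and its p-values are not independent evidence. Kappa V TPM and Igkc had a Pearson r of 0.995 on the log2 scale (exact permutation p = 2.76e-06, adjusted p = 5.51e-06 over 4 relations; Spearman rho 1.00, p = 5.51e-06). Lambda V TPM and the summed lambda constant genes had r = 0.998 (exact permutation p = 8.27e-06, rho 0.983), and V TPM and Jchain, the joining chain of secreted IgA and IgM, had r = 0.992 (exact permutation p = 2.76e-06, rho 1.00). Heavy V TPM and the summed heavy constant genes had r = 0.936 (exact permutation p = 1.65e-05, rho 0.967). Without the 2 mice farthest from the median, r was 0.976, 0.998, 0.964 and 0.934 in that order (n = 7, exact permutation p = 1.98e-04, 1.98e-04, 1.98e-04 and 0.00337). No correlation was computed within the cages, which hold 4 and 5 mice, under the minimum of 6 set for a correlation.

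In level, light chain V and constant genes matched closely and heavy chain genes did not. Kappa V TPM was 0.785 to 1.19 times that of Igkc, and lambda V TPM 1.16 to 1.39 times that of the lambda constant genes. Heavy constant genes, led by Igha with 7.35 to 116 TPM and Ighm with 11.0 to 54.5 TPM, together reached only 0.163% to 1.18% of heavy V TPM. Of Igha and of Ighm, 2 transcripts each are annotated and 1, the longer, is listed in the table, so the values of the other are not analysed here. Among the listed transcripts, that of Igha was the highest in 7 of 9 mice and that of Ighm in controls 1 and 3, which does not rank the genes as a whole.

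**Figure D5:**
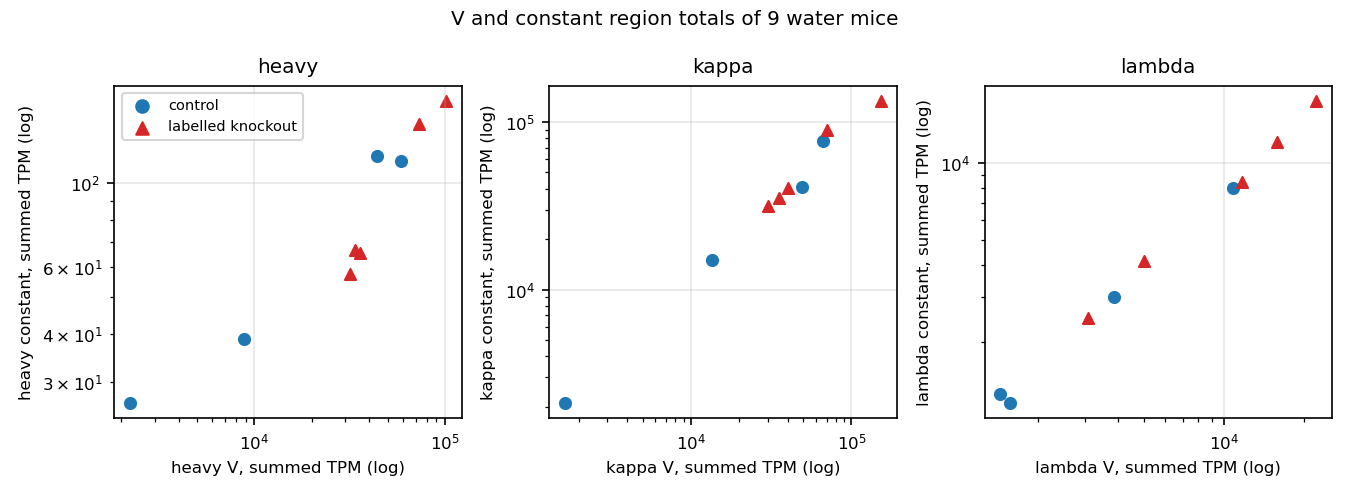
Summed constant region TPM (y axis, log scale) against summed V TPM (x axis, log scale) of the heavy, kappa and lambda loci in 9 water mice, controls as circles and labelled knockouts as triangles. The points rise together in each locus, with r of 0.936, 0.995 and 0.998, and control 3 is the lowest for heavy and kappa.

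Markers of plasma cells moved with the V totals. Over 18 plasma cell genes the summed TPM was 6897, 2474, 884 and 9331 in the water controls and 4130, 15597, 6273, 12965 and 5819 in the labelled knockouts, in the same order of mice as the V total. Jchain made up 52.6% to 88.8% of this sum. Without it the sum was 997, 567.9, 419 and 1170 TPM, against 756, 1797, 984, 1454 and 896 TPM, again in the order of the V total. Single genes did not all keep that order: 14 of the 18 were lowest in control 3 and 11 were highest in labelled knockout 2. Sdc1, Ssr4, Irf4 and Prdm1 were higher in control 3 than in control 2, and Irf4 was listed at 0 in labelled knockout 3. Prdm1 had 9.14 TPM in control 4 and 2.79 TPM in labelled knockout 2. Of the 18, 1 (Derl3) was under 1 TPM in all water mice. Mzb1, a chaperone of antibody assembly, had 8.84 TPM in control 3 and 52.6 to 353 TPM in the others, and Tnfrsf17 (BCMA, a survival receptor of plasma cells) 0.633 TPM in control 3 and 9.50 to 42.5 TPM in the others. Over 11 B cell genes the sum was 18.0 to 135 TPM, of which Cd79a took the most, while Cr2 was under 1 TPM in all 9. Over 7 genes of V(D)J recombination and the pre-B cell receptor the sum was 0 to 6.37 TPM, with Rag1, Igll1 and Vpreb2 listed at 0 in all 9 and only Vpreb3 above 1 TPM. Over 13 constant region genes the sum was 3271 to 141982 TPM, and Ighg2c and Ighe were listed at 0.

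Other cells were also represented. Sums were 8.79 to 20.5 TPM over 12 T cell genes and 1211 to 2761 TPM over 10 macrophage genes, against 4158 to 5835 TPM over 10 epithelial genes, of which Epcam, the sorting marker, had 566 to 712 TPM. In control 3, with the lowest V total, the epithelial sum was the highest and the macrophage sum, 2006 TPM, was within the range of the others. Tnfrsf1b, the targeted gene, had 11.1 to 15.5 TPM in the water controls and 9.23 to 14.8 TPM in the labelled knockouts, and 13.3 to 22.2 and 13.5 to 27.0 TPM after DSS. The ranges overlapped, and therefore the mice are called by their labels. The study reported less of its protein in EpCAM+ cells of the knockout genotype by flow cytometry, and loss of its expression by quantitative PCR of sorted cells. By the study's methods a single exon is flanked by loxP sites. The TPM given here does not separate exons, so the deletion was not tested by it.

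After DSS little V expression remained, and most of it lay in 1 mouse. V TPM was 1289, 92.1 and 120 in the DSS controls and 194, 1456, 9740 and 1120 in the DSS labelled knockouts. Labelled knockout 3 held 69.5% of the V TPM of the 7 mice together. The median was 1120 TPM after DSS and 81725 TPM in water, a ratio of 73.0, or 91.1 after a common rescaling of all 16 mice. No test was made across the tables, which were normalized apart, and the V genes had been chosen for their level in water. The ranges also overlapped, since water control 3 with 5442 TPM lay under DSS labelled knockout 3. By locus, the medians after DSS were 534 TPM for heavy, 578 for kappa and 11.6 for lambda V genes, against 35937, 40152 and 4989 in water.

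Igkc and Jchain were lower in median as well, while the genes of the plasma cell list differed in how far they fell. Igkc had 61.5 to 3510 TPM after DSS (median 630), against 2093 to 133382 in water, and Jchain 5.18 to 441 TPM, against 465 to 13800. The 18 plasma cell genes summed to 455 to 954 TPM after DSS, with 5 of them under 1 TPM in all 7 mice. Sec11c, Xbp1 and Sdc1, which epithelial cells also express, together had 257 to 388 TPM of this sum. Jchain alone had 441 TPM of the 954 in labelled knockout 3. Without Jchain the sum was 419 to 1797 TPM in water and 445 to 692 TPM after DSS, and the ranges overlapped. Mzb1 had a median of 134 TPM in water and 1.40 TPM after DSS, whereas Ell2 had 15.3 and 14.7 TPM. The B cell genes summed to 2.83 to 12.1 TPM, the T cell genes to 0.274 to 4.43, the recombination genes to 0.0584 to 2.16 and the constant region genes to 63.6 to 4594. Macrophage genes, 77.2 to 158 TPM, were lower too. The epithelial genes summed to 4107 to 5968 TPM, a range that reached past both ends of the water range. As deposited, Epcam had 894 to 1017 TPM after DSS, wholly above its own water range. After the common rescaling of all 16 mice its ranges overlapped, with a maximum of 780.7 in water and a minimum of 762.0 after DSS.

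Of the 182 V genes, 103 reached 1 TPM in at least 1 DSS mouse and 79 in none. A DSS mouse held 14 to 60 of them, against 85 to 160 in water. Igkv10-96 alone reached 1 TPM in all 7, from 2.94 TPM in control 3 to 100.7 TPM in control 1, with a median of 18.8. Of the 103, 17 reached 1 TPM only in labelled knockout 3, 8 only in control 1, 6 each only in control 3 and in labelled knockout 4, and 5 only in labelled knockout 2. The authors' table gives no mean count after DSS for 174 of the 182, against 48 in water.

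The V genes with the highest mean after DSS owed it to labelled knockout 3. Iglv1 lay at 11.6, 0 and 3.54 TPM in DSS controls 1 to 3 and at 14.7, 172, 1549 and 7.71 TPM in labelled knockouts 1 to 4. Ighv1-4 had 1003 TPM in labelled knockout 3 and was listed at 0 in the other 6. Ighv1-53 reached 867 TPM there and 0 to 69.1 TPM in the others. Igkv1-110 lay at 106.5, 0 and 3.71 TPM in DSS controls and at 5.60, 182, 490 and 61.5 TPM in labelled knockouts. Iglv1 held 99.5% to 100% of the lambda V TPM of the 6 DSS mice that had any.

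The leading genes after DSS again differed between mice. Heavy usage was led by Ighv7-3 (19.5%), Ighv3-6 (55.7%) and Ighv2-2 (19.8%) in the controls and by Ighv1-53 (39.7%), Ighv1-9 (39.5%), Ighv1-4 (20.8%) and Ighv3-6 (17.8%) in the labelled knockouts. Of these 6 genes, 4 had also led a water mouse. Kappa usage was led by Igkv1-110 in control 1 and labelled knockout 3 (15.6% and 14.6%) and by 5 other genes in the other mice, none of which by itself had led a water mouse. One of these 5, Igkv5-45, led 2 water mice when added to its close relative Igkv5-43. The effective number was 2.78 to 10.8 for heavy and 3.44 to 11.4 for kappa V genes. It was lowest in DSS control 2 and labelled knockout 1, where 6 and 7 heavy V genes reached 1 TPM and the heavy V TPM was 27.9 and 74.5, so that the share of a gene there rests on very little signal.

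Between genotypes after DSS, the V total differed by 2.45 on the log2 scale, labelled knockout over control (exact two-sided permutation p = 0.171, n = 3 and 4). The smallest p this design allows is 0.0286. The ranges overlapped, and without labelled knockout 3 the difference was 1.49. Within cage d it was 2.86 (2 against 3 mice) and within cage c 0.70 (1 against 1). Of the 83 V genes that passed a mean of 1 TPM after DSS, limma called 0 (lowest adjusted p 1.00), against 0.00918% of all genes, with 3 at an unadjusted p under 0.05, against 2.65%. All 3 were higher in the labelled knockouts, where 1.44% of all genes were higher and 1.21% lower. Over the 83 V genes the median log2 difference was 1.16, against 0.02 over all genes tested. Without labelled knockout 3 only 64 V genes passed the filter, and the median over those was 0.61. Genes high in labelled knockout 3 pass a filter on the mean more readily, so the median over the 83 is not independent of that mouse. The ranges of the genotypes overlapped for all 83, while 3.68% of all genes did not overlap.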

How the data were processed

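EpCAM+ cells of 16 mice were profiled by stranded, polyA-enriched single-end RNA-seq. The authors used kallisto for quantification and sleuth for their genotype tests. The submitters' processing notes name build mm10, and tool versions are not given in the sources used here. They deposited 2 tables, water and DSS, in TPM scaled apart, listing principal isoforms. The authors also deposited the mean natural log of kallisto's estimated counts over the mice of a table, which was read for the members. The authors' p-values, q-values and log2 ratios were not used. The table held 0 columns of other samples. TPM keeps no read counts, so depth per mouse is unknown, and the number of mice limits precision. In the water table, the authors' mean estimated count of the 134 V genes that have one was 2.82 to 3029 (median 36.2).

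Repeated lines (385 of 29373, each equal to its first copy) were removed. A V gene had 1 listed transcript, so its share was its TPM over the summed member TPM of its locus. kallisto matches reads to germline transcripts and divides those shared by near-identical genes, which makes such V genes uncertain. Joined and mutated V segments differ from the germline, and what was missed thereby was not tested. V exon sequences and positions were read from GENCODE M21 on GRCm38, where all 182 transcript versions matched.

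Genes whose mean reached 1 TPM were compared on log2(TPM + 1), which understates the change of low genes, with limma 3.58.1 and its variance trend (R 4.3.3). The script was tested on simulated data. For single values, mice were permuted exactly between groups, two-sided, in Python 3.11.15. Each library is a separate mouse. Mice with the same replicate number are different animals, and the correlations of their deviations from the group means (-0.0769 to 0.0932 in water, -0.197 to -0.0253 after DSS) gave no pairing. No test was run between the tables. Alternatives were a pseudocount of 0.1, no filter or a minimum of 5 TPM, median-of-ratios scaling, transcripts in place of genes, and a replicate block. Others were cage as a covariate for genotype, no genotype covariate for cage, all listed V genes, other indices and distances, and leaving out each mouse.

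Genes named were the 8 heavy, 8 kappa and all lambda members with the highest mean share in water, those leading a locus in a mouse, those called, the 3 highest after DSS, constant regions with Jchain, and those beside the threshold. The members and the marker lists were chosen with earlier results of these data known. Some marker genes are not reported here.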

Additional observations from a re-analysis of the deposited data

Results flagged for a closer look

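For 70 sets of values of a group of 4 or 5 mice, Dixon's test was read at its 95% critical value. In 22 of them a mouse at one end lay far from the others. By chance the test flags about 1 set in 20, but the V genes were named partly for leading a locus in a mouse. Their flags were favored by that choice, so the count is not read against this rate. Shares of V genes within a mouse sum to 100%, so these sets are not independent. Most of the 22 were V gene shares that were high in a single water mouse. Among the controls these were Ighv1-22 in control 3 (31.8%), Ighv3-6 (6.86%), Ighv5-16 (8.62%) and Igkv10-96 (10.9%) in control 2, Ighv6-3 (33.5%), Igkv1-110 (29.0%) and Iglv2 (21.8%) in control 4, and Igkv16-104 in control 1 (6.31%). Among the labelled knockouts they were Ighv1-4 (10.8%) and Ighv3-6 (8.39%) in mouse 1, Ighv2-2 in mouse 3 (29.1%), Igkv6-15 in mouse 4 (7.48%), and Ighv6-3 (21.1%), Igkv1-117 (20.1%), Igkv4-62 (0.0194%) and Iglv2 (2.56%) in mouse 5. Iglv1 was far below the others in control 4 (77.2%) and labelled knockout 5 (96.6%), the mice in which Iglv2 was high.

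The effective number of heavy V genes of control 2, 25.8, lay far above the 7.34 to 8.77 of the other controls. After DSS, labelled knockout 3 lay far above its group in all V TPM (9740, against 194 to 1456), heavy V TPM (4819, against 74.5 to 584) and lambda V TPM (1556, against 7.71 to 172).

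Outside the 182 genes, Ighv1-47, which had at most 0.287 TPM in a water mouse, had a mean of 2.88 TPM over the 7 DSS mice, from 10.8 TPM in control 1, 7.09 in labelled knockout 3 and 2.25 in control 2, and was listed at 0 in the other 4.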

How the results depend on the processing

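Under the alternatives that kept all mice, the number of V genes called stayed 0 for genotype in water, genotype after DSS and cage. The lowest adjusted p-values from limma were 0.102 to 0.859, 0.981 to 1.00 and 0.459 to 0.715. With each mouse left out in turn, 0 to 1 V genes were called for genotype in water and 0 for the other comparisons. The 1 was called without control 1, where 0.0182% of all genes were called. The replicate block kept only numbers found in both genotypes, which dropped labelled knockout 5 in water and labelled knockout 4 after DSS. With it, limma called 0 of 177 V genes in water (lowest adjusted p 0.317) and 0 of 77 after DSS (0.268), and 0 of all genes. At an unadjusted p under 0.05 there were 42 and 5 V genes, against 5.58% and 1.56% of all genes. The numbers do not pair the mice, and 2 of 4 water controls and 0 of 3 DSS controls correlated best with their own number. Log2 differences of V totals kept their sign with each mouse left out, at 0.75 to 2.27 for all V genes in water, 0.79 to 2.36 for heavy, 0.62 to 2.39 for kappa, 1.18 to 2.15 for lambda and 1.49 to 3.65 after DSS. The relations of V totals and constant regions kept r of at least 0.925.

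The measures of dominance, none past the threshold in any alternative, changed sign in several. Leaving out 1 mouse gave differences between cages (b minus a) of -3.45 to 3.55 percentage points for the heavy leading share, -3.35 to 2.84 for the heavy effective number, -6.06 to 1.53 percentage points for the kappa leading share and -1.45 to 2.81 for the kappa effective number. Between genotypes (labelled knockout minus control) the kappa effective number moved between -4.83 and 0.42 and the lambda share between -8.64 and 5.80 percentage points. With the exponential of Shannon entropy in place of the inverse Simpson index, the heavy effective number differed between cages by 0.70. With near-identical genes merged, an alternative chosen after seeing the data, the kappa leading share differed by -4.99 percentage points between genotypes and by 1.35 between cages. The pseudo-F of heavy V usage by genotype was 1.05 to 1.32 with a mouse left out, and its exact permutation p 0.0179 to 0.339. Under the alternatives that kept all mice, the same pseudo-F was 0.84 to 1.20, and its exact permutation p 0.183 to 0.643. The cause of these changes was not tested. TPM gives no depth, so the V genes that a mouse lacks cannot be told from those below detection.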
